A study of Mus musculus with 15 samples.

Results

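The transcripts described here were those whose signal in 10-week-old liver was lower after arsenic exposure, whether the arsenic was given before birth or after weaning. They are 100 of the 42006 probes of the array. For each probe the log2 ratio of liver signal over reference signal was taken, and the gap was the lowest ratio on the 3 unexposed adult arrays minus the highest ratio on the 6 exposed adult arrays. The 100 probes with the largest gap were kept. The members were thus chosen by the adult ratios themselves, so that every difference between exposed and unexposed adults below is a description of the choice and carries no test. A gap above 0, with no overlap between the 3 unexposed and the 6 exposed arrays, was found for 984 probes, which is 2.34% of all probes. The opposite pattern, with the 3 unexposed arrays below all 6 exposed ones, was found for 5.49%.

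Total liver RNA came from 15 ApoE-/- mice, of which the labels give the strain as C57/BL6J, with 1 array per mouse and 3 mice per group. In the 10 week tap/tap group dams and offspring had drunk arsenic-free water throughout. In the 10 week as/tap group the dams had drunk water with arsenic at 49 ppm, added as sodium arsenite (85 mg/L), from gestational day 8 until delivery and the offspring had then lived on clean water, while in the 10 week tap/as group the mice themselves had drunk water with the same arsenic content from postnatal day 21. Newborn livers were taken on the day of birth from litters of exposed dams (newborn as) or of unexposed dams (newborn tap). All groups lacked ApoE, the mice of a group came from separate litters, and no wild-type liver was included. On each array the liver RNA was labelled with Cy3 and a pool of RNA from 11 mouse cell lines with Cy5, so a ratio above 0 means more signal from liver than from the pool.

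The liver secretes most plasma proteins and lipoproteins, clears lipoprotein remnants through ligands such as ApoE, and methylates inorganic arsenic for excretion. Its transcriptome is remodelled between birth and adulthood, when blood formation leaves the organ and hepatocytes take up adult metabolism. RNA from whole liver sums hepatocytes, endothelium, Kupffer cells, stellate cells and blood, so fewer cells of a type and less RNA per cell cannot be told apart. The files pair each probe with an identifier and a sequence of 60 bases but with no gene, so the members are described by probe, no marker of hepatocytes or other cells could be read, and the labelled tissue was not checked in this way.

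The sequences of 8 of the 12 probes with the largest gap are shown. They are the only identity that the deposited arrays give to the transcripts at the head of the list. The paper used a gene list for this array taken from GEO, which was not among the sources used here. Probes without a polyadenylation hexamer, with a reading frame free of stop codons and with a GC content of at least 45% are printed whole, and others as 30 bases or fewer. Capitals mark the hexamer AATAAA in Z00010468-1 and Z00012297-1 and the bases that Z00022893-1 shares with another probe.
Z00030685-1: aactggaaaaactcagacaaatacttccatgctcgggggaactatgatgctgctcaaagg
Z00052857-1: ctatatgttctagtccagctattgaggggt
Z00022893-1: GGTTTATTTTTTAAAACTGTATCCAAA
Z00010468-1: actttgttgggctcatttgcctaAATAAAc
Z00019088-1: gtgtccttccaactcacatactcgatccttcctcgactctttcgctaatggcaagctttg
Z00012297-1: ttgtagagtataAATAAAaacaaagccgct
Z00039323-1: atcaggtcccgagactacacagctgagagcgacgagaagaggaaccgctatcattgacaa
Z00035620-1: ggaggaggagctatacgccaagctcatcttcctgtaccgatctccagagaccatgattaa

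Z00030685-1 stood apart from the other 99 probes by the size of its difference. Its ratios were 1.13, 0.81 and 2.26 on the 3 tap/tap arrays, -0.15, -0.41 and -0.21 on the as/tap arrays and -0.60, 0.26 and -0.11 on the tap/as arrays. The unexposed livers were all well above the reference and the exposed livers near or below it, with a gap of 0.55. The mean over the 6 exposed arrays was 1.60 lower on the log2 scale than the tap/tap mean, a ratio 3.03-fold higher without exposure. The processed liver signal had a geometric mean of 23644 scanner units in tap/tap and 6755 in the exposed livers, among the brighter signals of the list. The spread among the tap/tap livers was also wide, with an SD of 0.76 (n = 3).

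The probes next in the order differed by less. Z00052857-1 was at -1.42, -1.10 and -1.10 in tap/tap, at -1.87, -2.14 and -1.92 in as/tap and at -1.92, -1.90 and -2.10 in tap/as. Both exposed groups were 0.77 below tap/tap, with a gap of 0.45. Z00022893-1 was at -1.80, -1.70 and -1.80 in tap/tap, at -2.35, -2.34 and -2.24 in as/tap and at -2.42, -2.19 and -2.53 in tap/as. Its signal was below that of the reference pool in every adult liver and lower again after exposure. With the liver channel minus the median of its array block, described with the position on the array below, its adult difference was -0.078 in place of -0.58.

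Z00024082-1 was the faintest of the 12, and on all 15 arrays it stayed below the level that 95% of the negative control spots did not exceed. It was at -0.11, -0.06 and 0.08 in tap/tap, at -0.92, -0.82 and -0.66 in as/tap and at -0.93, -0.48 and -1.05 in tap/as. Its geometric mean liver signal was 56.1 units in tap/tap and 41.4 in exposed livers, while its reference signal was 0.34 higher on the log2 scale on the exposed arrays. With background correction, quantile normalization and loess its exposed minus tap/tap difference was -0.15 in place of -0.78. This setting is called the background-corrected normalization below. The paper's methods state mean-centering, quantile normalization and lowess smoothing but no background correction. Z00024082-1 was also the only one of the 100 for which the scanner software replaced a signal by a surrogate value.

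Z00008644-1 was at -1.47, -1.43 and -1.58 in tap/tap, at -2.00, -1.98 and -1.93 in as/tap and at -2.07, -2.19 and -1.92 in tap/as. It exceeded the negative controls on the 6 newborn arrays and on none of the 9 adult arrays, so its adult values rest on little signal. With the background-corrected normalization its adult difference was -0.23 in place of -0.52. Z00073108-1, the only one of the 12 besides Z00030685-1 with tap/tap ratios above 0 on every array, was at 0.90, 0.74 and 0.84 in tap/tap, at 0.23, 0.42 and 0.40 in as/tap and at 0.31, 0.23 and 0.41 in tap/as. It exceeded the negative controls on all 9 adult arrays, and its adult difference of -0.49 became -0.29 with the background-corrected normalization.

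The other probes of the 12 were above the negative controls on all 15 arrays. Z00010468-1 was at -1.63, -1.62 and -1.66 in tap/tap, at -2.08, -2.10 and -1.95 in as/tap and at -1.99, -2.05 and -2.20 in tap/as. Z00019088-1 was at -0.48, -0.36 and -0.33 in tap/tap, at -0.90, -0.85 and -0.80 in as/tap and at -0.75, -0.78 and -0.94 in tap/as. Their unexposed means lay 0.42 and 0.44 above the exposed means. Z00024096-1 was at -1.38, -1.42 and -1.39 in tap/tap, at -1.71, -1.77 and -1.69 in as/tap and at -1.85, -1.76 and -1.80 in tap/as. Z00012297-1 was at -0.62, -0.54 and -0.49 in tap/tap, at -0.91, -0.87 and -1.10 in as/tap and at -1.05, -1.04 and -0.99 in tap/as. For Z00024096-1 and Z00012297-1 the 3 tap/as values were all below the middle as/tap value. Z00039323-1 was at -1.62, -1.62 and -1.59 in tap/tap, at -1.87, -1.94 and -1.90 in as/tap and at -2.15, -1.91 and -1.96 in tap/as. Z00035620-1 was at -0.62, -0.51 and -0.60 in tap/tap, at -0.86, -0.92 and -0.97 in as/tap and at -1.05, -0.99 and -1.10 in tap/as, and it is one of the few probes of the list whose 3 tap/as values all lay below the 3 as/tap values. Its adult difference of -0.41 turned to 0.14 with the liver channel minus the block median. Under that setting the adult difference was -0.26 for Z00010468-1, -0.30 for Z00019088-1, -0.13 for Z00024096-1, -0.20 for Z00012297-1 and -0.035 for Z00039323-1, while the scaled liver signal without the reference gave -0.71 for Z00019088-1 and -0.385 for Z00024082-1.

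Over all 100 probes the differences were small. The tap/tap mean was between 1.14-fold and 3.03-fold above the mean of the exposed livers, with a median of 1.29-fold. The gap itself ran from 0.13 to 0.55 with a median of 0.16, and 27 probes had a gap of at least 0.2. The last probes inside the threshold were Z00035545-1 with a gap of 0.1289, Z00006029-1 with 0.1289 and Z00030490-1 with 0.1271. The first outside it were Z00049805-1 with 0.1266, Z00030679-1 with 0.1254 and Z00033326-1 with 0.1246, so that no step in the data separates members from the probes that follow. Beyond the first 12, the next 13 probes in the order of the gap had exposed means between 0.30 and 0.56 below tap/tap. The median SD of the 100 probes within tap/tap was 0.07, against 0.12 for all probes, since the rule favours probes with little spread.

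The level of the members was also read array by array. The median deviation of the 100 probes from their own tap/tap mean was -0.02, -0.01 and 0.02 on the tap/tap arrays. It was -0.31, -0.35 and -0.35 on the as/tap arrays and -0.43, -0.32 and -0.37 on the tap/as arrays. All 6 exposed livers were shifted, and tap/as replicate 2 was the highest exposed array for 32 probes, more often than any of the other 5 exposed arrays. On the newborn arrays the same median was -0.05, -0.11 and -0.19 in newborn as and -0.135, -0.03 and -0.21 in newborn tap, where the values of the exposed and unexposed litters interleaved. The lowest tap/tap array, which fixes the gap, was replicate 1 for 40 probes, replicate 2 for 40 and replicate 3 for 20.

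The first question was how the exposure before birth compares with the exposure after weaning. Relative to tap/tap, the 100 probes had a median difference of -0.35 in as/tap (range -1.65 to -0.20) and of -0.37 in tap/as (range -1.55 to -0.18). The medians over all probes were 0.00 in both. These 2 comparisons share the 3 control arrays. In as/tap 14 of the 100 probes were at least 0.5 below tap/tap, against 0.693% of all probes, and in tap/as 20 were, against 0.519%. These counts follow from the choice and are given for size only. Z00030685-1 was the only probe of the list at least 1 below tap/tap in either exposed group, a size reached by 0.0333% of all probes in as/tap and by 0.0190% in tap/as.

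The rule does not fix which exposed group lies lower, but it used the highest of the 6 exposed arrays and so passes over probes in which the exposed groups differ. The comparison between the exposures is therefore a description, and counts below the share of all probes follow from the choice. The difference tap/as minus as/tap over the 100 probes had a median of 0.00 and ran from -0.27 to 0.22, with 50 below 0 and 50 above. In the limma fit across all probes (3 arrays per group), 0 of the 100 probes and 3.09% of all probes had an unadjusted p below 0.01, the latter 1.38% with lower and 1.71% with higher values in tap/as. At an unadjusted p of 0.05 the count was 3 of the 100 and 10.6% of all probes. Of these 3, 2 were lower in tap/as (5.03% of all probes) and 1 was higher (5.60%), and ordinary variances in place of limma's moderated ones also gave 0 and 3. No probe of the array passed a Benjamini-Hochberg adjusted p of 0.05. The 3 tap/as values all lay below the 3 as/tap values for 5 probes (7.98% of all probes) and all above for 5 (8.06%).

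The 3 probes below 0.05 are named after their values were seen. Z00064952-1 was at -0.33, -0.08 and -0.29 in as/tap and at -0.03, 0.00 and -0.01 in tap/as, where tap/as was closer to the reference. Z00065210-1 was at -0.82, -0.75 and -0.68 in as/tap and at -0.93, -0.89 and -0.92 in tap/as, and it exceeded the negative controls on 0 of the 15 arrays. Z00072271-1 was at -1.34, -1.23 and -1.26 in as/tap and at -1.45, -1.41 and -1.78 in tap/as, so that the 3 tap/as livers were the lowest.

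The newborn arrays were not used in the choice, and they show whether livers exposed before birth already carried the adult difference on the first day of life. The 100 probes did not shift in one direction. The difference newborn as minus newborn tap had a median of -0.01 over the 100 probes and of 0.00 over all probes, with 53 of the 100 below 0 against 49.0% of all probes. It ran from -1.36 to 0.65. At an unadjusted p of 0.01 (limma, 3 arrays per group) 0 of the 100 probes differed, against 0.805% of all probes, and at 0.05 the count was 7, against 5.40%. Of these 7, 1 was lower in exposed newborns, the direction of the adult difference (2.27% of all probes), and 6 were higher (3.13%). With ordinary variances the counts were 0 and 5. The count at 0.01 was 5 of the 100 (2.34% of all probes) with the 12 arrays of unexposed and prenatally exposed mice in the fit. With all 15 arrays it was 4 (3.11%). Both fits draw part of their variance from adult arrays, where the rule favours probes with little spread. Their counts of members can therefore not be read against the share of all probes. With the background-corrected normalization the count at 0.01 was 3 (0.89%). Over all probes it ran from 188 without newborn as replicate 3 to 1416 without newborn as replicate 1. No probe of the array passed the adjusted threshold, and the smallest limma adjusted p among the 100 was 0.825.

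The median standard error of the newborn difference was 0.12 over the 100 probes, and 0.12 over all probes. The median SD of the 100 probes was 0.14 in newborn as and 0.15 in newborn tap, against 0.13 and 0.135 for all probes. The adult difference of the same probes, which the choice made large, had a median size of 0.37. The 3 exposed newborn livers were all below the 3 unexposed ones for 3 probes (5.48% of all probes) and all above for 8 (5.89%).

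Z00015608-1, with the smallest p in newborns, was at 1.13, 1.73 and 1.45 in newborn as and at 0.86, 0.90 and 0.87 in newborn tap. The difference of 0.56 (standard error 0.15, limma adjusted p = 0.825) has the opposite sign to the adult one, where this probe was 0.42 below tap/tap in as/tap. Z00024096-1, ninth in the order of the gap, was at -1.37, -1.34 and -1.56 in newborn as and at -1.70, -1.68 and -1.84 in newborn tap. Exposed newborns were thus 0.32 higher, with a standard error of 0.09 and an adjusted p of 0.825 in limma. Z00010468-1 was at -2.09, -1.98 and -1.30 in newborn as and at -2.25, -2.47 and -2.45 in newborn tap. Z00023616-1 was the only one of the 7 that was lower in exposed newborns, at -0.28, -0.59 and -0.08 against 0.19, 0.04 and -0.09 in newborn tap, where the groups overlapped slightly.

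The largest negative differences in newborns came from probes that varied among unexposed pups. Z00030685-1 was at -2.07, -2.84 and -2.58 in newborn as and at -2.69, -1.99 and -0.59 in newborn tap. The groups overlapped, and the difference of -0.74 had a standard error of 0.53 (limma adjusted p = 0.827). Z00026647-1 was at -2.60, -3.69 and -3.72 in newborn as and at -3.30, -2.12 and -0.50 in newborn tap, a difference of -1.36 with a standard error of 0.71. In both probes newborn tap replicate 3 was the highest newborn array, and much of each difference rests on it. The other newborn tap arrays lay nearer to newborn as. In adults Z00026647-1 was at -1.24, -2.61 and -2.42 in tap/tap, and its exposed arrays ran from -3.25 to -2.77.

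The normal change between birth and 10 weeks was read from tap/tap minus newborn tap. It is given without a test, because the tap/tap arrays were chosen to be high. Age also coincides with the day of the scan, so that age and scan day cannot be told apart. The 100 probes had a median life stage difference of 0.13, against 0.00 for all probes, with 68 above 0 against 50.1% of all probes. When the 6 exposed arrays, which the rule chose to be low, stood for the adults, the median was -0.23 and 28 probes were above 0 (51.1% of all probes). Past 1, the exposed adults were higher for 2 probes (4.61%) and lower for 11 (6.90%). The share of members with large life stage differences was near that of all probes, since adult tap/tap was higher by at least 1 for 2 probes (4.63% of all probes) and lower by at least 1 for 7 (7.18%), and past 0.5 the counts were 15 higher (15.8%) and 11 lower (16.4%).

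Z00030685-1 had the largest adult excess, with a tap/tap mean 3.15 above the newborn tap mean, and its exposed adult livers were still 1.55 above newborn tap. Z00072271-1 was 1.53 higher in adults, with newborn tap values of -2.77, -2.35 and -2.21. Among the probes lower in adults, Z00018686-1 was at 4.51, 4.59 and 4.62 in newborn tap and at -1.58, -1.68 and -1.69 in tap/tap, a 74.7-fold drop of the ratio. It exceeded the negative controls on all 3 tap/tap arrays and on 3 of the 6 exposed adult arrays, whose values were between -2.30 and -1.82, and newborn as, at 4.45, 4.62 and 4.42, overlapped newborn tap. Z00025780-1 differed by -2.86, and Z00017053-1 by -2.46. Z00064621-1 followed with -1.46 and Z00052857-1 with -1.30, and Z00006029-1 lay just past 1. For the remaining one, Z00008644-1, no size is given, because its adult signal was not above the negative controls. In these 7 probes the newborn level was above tap/tap, and by the choice the exposed adults lay farther from it. Over the 100 probes the newborn tap mean lay above the tap/tap mean for 32, between the tap/tap and exposed means for 40 and below the exposed mean for 28. In mice exposed before birth the same step, as/tap minus newborn as, had a median of -0.20, with 76 of the 100 probes below 0 against 49.3% of all probes. The as/tap arrays were among those chosen to be low.

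The 2 dyes were also read separately. In the liver channel all 100 probes were lower on the exposed adult arrays, with a median of -0.52, and so were 57.3% of all probes. For 3 members the reference channel rose by more than the liver channel fell. They were Z00063255-1 (liver -0.05, reference 0.22), Z00072145-1 (-0.10 and 0.19) and Z00023336-1 (-0.15 and 0.16). With the scaled liver signal described below 99 of the 100 were lower, and Z00063255-1 was at 0.004. In the reference channel, where the same RNA pool was on every array, 70 of the 100 and 61.6% of all probes were lower on the exposed arrays, with a median of -0.13 and a range from -0.61 to 0.34, against -0.04 for all probes. With the liver signal scaled to the 75th percentile of each array in place of the reference, the median was -0.47 and 70 of the 100 probes kept every tap/tap array above every exposed array, a pattern shown by 8.45% of all probes. In the reference channel alone, 34 of the 100 had that pattern (13.3% of all probes). The part of the reference channel in the result was not tested. Over all probes the median Cy3 signal above background was 146.5 to 193.0 units on the tap/tap arrays and 132.6 to 165.7 on the exposed adult arrays, and between 90.6% and 96.4% of all probes exceeded the negative controls on each of the 15 arrays.

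The members were not spread evenly over the array. Of the 100 probes, 52 lay in columns 121 to 180 of 430, which held 14.0% of all probes, and their median column was 152 against 216 for all probes. On each of the 6 exposed adult arrays both dyes were dimmer inside this band than elsewhere. The median log2 signal inside minus outside was -0.37 to -0.18 in the liver channel and -0.35 to -0.16 in the reference channel of these arrays. On the tap/tap arrays it was 0.195, -0.055 and 0.10 in the liver channel and 0.19, -0.02 and 0.06 in the reference channel. In each dye the band thus separated the 3 tap/tap arrays from the 6 exposed ones. In the ratio, which the rule used, the median inside minus outside was 0.015, 0.004 and 0.047 on the tap/tap arrays, -0.02, -0.03 and -0.035 on the as/tap arrays and 0.02, 0.01 and -0.02 on the tap/as arrays, where tap/tap and tap/as overlapped. For all probes of columns 141 to 160, tap/tap exceeded the exposed arrays by a median of 0.40 in the liver channel and 0.34 in the reference channel, but by 0.04 in their ratio, and 6.39% of the probes there had a gap above 0.

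Members inside and outside the band passed the same gap, which sets a floor on the difference but no ceiling. The exposed minus tap/tap differences ran from -1.60 to -0.19 inside and from -0.915 to -0.20 outside. The median exposed minus tap/tap difference was -0.365 for the 52 inside and -0.371 for the 48 outside, and Z00030685-1, Z00052857-1 and Z00022893-1 lay inside. The reference channel differed between them, at -0.21 inside and 0.01 outside, as it did for all probes, at -0.305 and -0.02. When the median of all probes in the same block of 20 rows and 20 columns was subtracted from each ratio, all 100 probes still had a gap above 0 (2.19% of all probes) with a median difference of -0.34. A list of 100 chosen anew on that ratio shared 67 probes with the members and still had 48 in the band. When the liver signal itself was treated in this way and the reference left out, 38 of the 100 did (3.08% of all probes), with a median of -0.26, and 3 of the 25 probes with the largest gap changed sign. A list of 100 chosen anew on this liver signal had 71 in the band, so subtracting the block median did not even out the positions. The part of the position in the result was not tested. In newborns the median difference was 0.00 for the members inside the band and -0.02 for those outside.

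The brightness of the members differed between the band and the rest of the array. Inside the band their median log2 liver signal in adults was 10.04 against 9.72 for all probes there, and outside it was 8.68 against 9.87. Of the 100 probes, 75 exceeded the negative controls on all 15 arrays (85.4% of all probes), 22 on some (13.8%) and 3 on none (0.833%). The 3 were Z00024082-1, Z00055404-1 and Z00065210-1. The median GC content was 45% against 43.3%. A search on the printed strand found AATAAA or ATTAAA in 10 of the 100 probes and in 9.73% of all probes, and their reverse complements TTTATT or TTTAAT in 6 and in 5.59%. A reading frame without a stop was present in 78 of the 100 and in 83.2% of all probes.

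Stretches of at least 24 bases shared with other probes were found for 5 members, and for 4.12% of all probes. Z00031267-1 shared 49 bases with Z00027826-1, and 30 bases of each are shown with 25 of the shared bases in capitals.
Z00031267-1: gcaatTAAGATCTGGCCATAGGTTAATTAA
Z00027826-1: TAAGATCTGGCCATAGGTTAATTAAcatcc
Z00031267-1 was at 0.35, 0.13 and 0.12 in tap/tap, at -0.11, -0.23 and -0.31 in as/tap and at -0.29, -0.08 and -0.05 in tap/as. Its overlapping probe, just outside the list with a gap of 0.12, was 0.23 lower in as/tap and 0.28 lower in tap/as. Z00060787-1, which shared 42 bases with the member Z00060568-1, was 0.49 and 0.38 lower, with a gap of -0.04. Z00030624-1, which shared the 27 bases shown above with Z00022893-1, differed from tap/tap by -0.12 in as/tap and 0.08 in tap/as, with a gap of -1.08, while Z00022893-1 differed by -0.54 and -0.61. Z00072589-1, which shared 27 bases with Z00071988-1, differed by -0.12 and -0.13 with a gap of -0.11. Of these 4 partners on the same strand 3 were lower in both exposures, and 37.5% of all probes were. The 3 partners on the opposite strand, Z00063681-1 for Z00031267-1 and both Z00063700-1 and Z00063731-1 for Z00063667-1, were between 0.44 and 0.68 lower, with gaps below 0. All partners were read on the adult arrays that made the choice, so the values are a description.

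Of the 100 probes 7, and 1.87% of all probes, matched a window from 250 bases before to 50 bases after a gene start (RefSeq windows on GRCm38.p6) over at least 24 bases, and for 2 of them, Z00063667-1 with 15 windows and Z00073737-1 with 8, the matches were spread over many genes. Z00073737-1 matched over all 60 bases in the window of Fut8, on the opposite strand, and over 28 to 46 bases in the other windows. Z00063786-1 matched over its whole length at chr1:179546443-179546502 on the plus strand, between the divergent starts of Cnst, which encodes consortin, a connexin sorting protein, and Tfb2m, which encodes a mitochondrial transcription factor. It is shown because its bases matched at 1 place and no other in these windows, 27 bases before the start of Cnst and 167 bases before that of Tfb2m.
Z00063786-1: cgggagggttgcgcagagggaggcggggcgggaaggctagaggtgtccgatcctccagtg
Its ratios were 0.01, -0.19 and -0.04 in tap/tap, -0.43, -0.32 and -0.58 in as/tap and -0.46, -0.54 and -0.36 in tap/as. In newborns they were 0.23, 0.03 and 0.00 in newborn as and 0.15, 0.17 and -0.29 in newborn tap, where the groups overlapped. The match is a description of the letters, and which transcript the probe reads in liver was not tested.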

How the data were processed

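RNA from 15 livers was hybridized with a reference pool to 15 arrays of 44290 spots, and the authors deposited the output of Agilent Feature Extraction A.7.5.1. The deposited values used here are intensity values, the processed signals of both dyes, with background and dye bias treated by the scanner software. The file headers state a LOWESS smoothing factor of 0.25 and spatial detrending off. Their code for the dye normalization method was not decoded. The 1942 positive and 314 negative control spots were left out, log2 of Cy3 over Cy5 was taken with no further normalization, and spots of a probe were averaged. No pair of arrays shared more than 0.00238% of Cy3 signals.

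Models with one mean per group were fitted to all probes with limma 3.58.1 in R 4.3.3 for 2 comparisons, on the 6 newborn and on the 6 exposed adult arrays (4 residual degrees of freedom each), at the unadjusted p of 0.01 of the methods and a Benjamini-Hochberg adjusted p of 0.05. The fit was tested on simulated data. Precision is limited by having 3 arrays in a group, and each array was scanned on a slide of its own, so no slide entered as a block. The probes given by array include the 12 with the largest gap. Members that passed p 0.01 were to be added, and there were 0. The other probes given by array were picked after their values or sequence matches were seen. The 25 probes with the largest gap were followed under the alternatives.

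The members, lists and tests were chosen with earlier results of these data known. Gene lists and cell type markers that had been planned need gene names, which were not paired with the probes in the sources used here, and were not used. The alternatives were 4 other scalings or normalizations, filters on dim and outlier spots, other sets of arrays in the fit and ordinary variances. A replicate block, lists of 50 and 200 probes and each array left out were also used. The background-corrected normalization was background correction, quantile normalization and loess (offset 50, span 0.3). The paper's methods state mean-centering, quantile normalization and lowess smoothing but no background correction, so this setting follows them only in part. The filter on negative controls (95th percentile), the correction for array position and the band of columns were added after the data were seen.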

Additional observations from a re-analysis of the deposited data

Results flagged for a closer look

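For 8 of the 100 probes the 3 exposed newborn livers were all above the 3 unexposed ones, while in adults the choice had put both exposed groups below tap/tap. The newborn difference was 0.60 for Z00010468-1, 0.32 for Z00024096-1, 0.24 for Z00028361-1, 0.35 for Z00057776-1, 0.56 for Z00015608-1, 0.26 for Z00018193-1, 0.31 for Z00072308-1 (-0.023 with the liver channel minus the block median) and 0.23 for Z00030490-1. Z00018193-1 and Z00072308-1 exceeded the negative controls on 0 of the 3 newborn tap arrays. Their newborn tap values rest on little signal, so the sizes 0.26 and 0.31 cannot be relied on. Without newborn as replicate 3 the newborn difference was 0.355 for Z00010468-1 and 0.223 for Z00057776-1. In Z00030490-1 the newborn as values were -2.11, -2.41 and -2.53, and in Z00028361-1 they were -2.55, -2.77 and -2.97. Much of the difference in both probes rests on replicate 1, the first value. The difference between the ages was not tested, because the adult direction was fixed by the choice of probes. Probes with exposed newborns all above unexposed ones made up 5.89% of the array, close to the 8 of 100 seen here.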

How the results depend on the processing

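All 100 probes kept every tap/tap array above every exposed array with each adult array left out (lowest and highest count 100 and 100, since leaving out an array can only widen the gap), with ratios minus the array or block median and with outlier spots removed. Outlier removal could not change this count, since 0 members had an outlier spot on any array. Nor could the array medians, which ran from -0.008 to 0.002 on the adult arrays, against a smallest gap of 0.127. The count was 95 with the background-corrected normalization and 99 with quantile normalized ratios. It was 70 with the liver channel alone and 38 with the liver channel minus the block median. The filters on dim probes left 99 and 91 members in. The list itself depended on single arrays. Chosen anew, it shared 19 probes with the 100 without tap/tap replicate 1, 39 without replicate 2 and 51 without replicate 3. It shared 65 without tap/as replicate 2 and 66 without tap/as replicate 3. The shared count was 62 with the background-corrected normalization, 61 with quantile normalized ratios, 67 with ratios minus the block median, and 7 with either form of the liver channel alone. Of the 25 probes with the largest gap, 18 moved by more than the replicate SD with the background-corrected normalization (median of all 100 members -0.26). With the liver channel alone 11 did (median -0.47), and with the liver channel minus the block median 18 did (median -0.26). Of the latter, 3 turned in sign, Z00035620-1 (0.14), Z00025780-1 (0.10) and Z00028361-1 (0.11), and in newborns Z00072308-1 did (-0.023).

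The count of 0 members at p 0.01 in newborns became 5 with 12 arrays in the fit (2.34% of all probes) and 4 with all 15 arrays (3.11%). Both fits draw part of their variance from adult arrays chosen for little spread, so these counts cannot be read against all probes. The count was 3 with the background-corrected normalization (0.89%). It was 1 with the array median, the block median and the liver channel minus the block median. It was also 1 with either filter on dim probes and with outlier spots removed. In these settings 0.759% to 1.33% of all probes passed. With an array left out the count was 0 to 1. Between the exposures it became 1 with all 15 arrays (1.49%) and with the liver channel minus the block median (2.36%), and 0 to 1 with an array left out. Over all probes the count at 0.01 ran from 188 (without newborn as replicate 3) to 1416 (without newborn as replicate 1) around 338 in newborns, and from 625 (all 15 arrays) to 1523 (without tap/as replicate 1) around 1299 between the exposures. With the replicate number as a block both counts of members were 0 and 0, and same-numbered arrays of the compared groups did not deviate together (correlations across probes of -0.281, -0.075 and -0.226 in newborns, and -0.086, 0.021 and -0.206 between the exposures). Between tap/tap and as/tap, which no test compares, they were 0.323, 0.104 and 0.109. The median newborn difference over the members stayed between -0.12 and 0.04. The 9 probes past 1 in the life stage comparison became 15 with quantile normalized ratios and 15 with the liver channel minus the block median, and 8 to 9 with an array left out. The causes of these shifts were not tested. Signal near the negative controls limits 25 of the 100 probes.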
